A study of Mus musculus with 9 samples.

Results

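The antioxidant genes described here are 42 genes of the glutathione system and of the response driven by the transcription factor NRF2. They comprise NRF2 itself (Nfe2l2) and its inhibitor Keap1, the enzymes that make and recycle glutathione, the thioredoxin system, the peroxiredoxins, the glutathione peroxidases and transferases, the superoxide dismutases and catalase, the enzymes that supply NADPH, and the metallothioneins. They were taken by gene symbol from a written list and not by a cut on their measured values. Earlier results of these data were, however, known when the list was chosen. All 42 were found among the 55487 genes of the count table. A filter on low counts kept 41 of them for testing. The remaining gene, Gpx7, had 0 counts in all 9 libraries, which allows a level of at most 0.0538 to 0.076 CPM in a library (CPM, counts scaled to a common total; 3 counts of the library's total, counting error only).

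The cells were MCEC, an established endothelial line from mouse heart, and their poly-A RNA was sequenced. The groups were WT (unmodified cells), KD (Zbtb46 knockdown) and OE (Zbtb46 overexpression), with 3 libraries each. Zbtb46 encodes a transcription factor with a BTB domain and zinc fingers. The labels name no age, treatment or further allele and do not say by what means Zbtb46 was lowered or raised, whether a line is 1 clone, or whether the libraries came from separate cultures. The p-values therefore measure the spread between these libraries, which may be technical. Cells carrying only a vector were not analysed here, so the change in Zbtb46 and the making of each line cannot be told apart.

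In unstressed cells KEAP1 holds NRF2 in the cytoplasm and hands it to a ubiquitin ligase for degradation. Oxidants and electrophiles modify cysteines of KEAP1, NRF2 then accumulates in the nucleus, pairs with small MAF proteins and binds antioxidant response elements near genes for glutathione synthesis, thioredoxin reduction, quinone and heme breakdown and NADPH supply. In endothelial cells these enzymes limit the peroxide and superoxide that the vessel wall is exposed to.

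The core letters of the antioxidant response element, TGACNNNGC on either strand, were searched in RefSeq promoter windows (GRCm38.p6, 250 bases before to 50 after a start). Of the 42 genes 36 had a window, 45 windows in all. In 42 of the 45 the bases just after the start occurred in an annotated transcript of the gene. The core was present in 12 of the 45 (26.7%), 1 for each of 12 genes, against 12.4% of all 32851 windows of that length. The 12 genes were G6pdx, Gclm, Gstm5, Me1, Mgst1, Mt2, Nfe2l2, Pgd, Prdx1, Sod1, Srxn1 and Txnrd1. Hmox1, Gsr, Prdx6, Gsta4, Gclc and Sod3 were not matched to a window. The stretches below are the 6 that lie before the start and outside the gene's own annotated exons, and they show how the core sits near genes whose values follow. Each is written 5′ to 3′ on the gene's strand, with the core in capitals. A core that reads GCNNNGTCA lies on the opposite strand.
Nfe2l2: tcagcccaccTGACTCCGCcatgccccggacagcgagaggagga
Gclm: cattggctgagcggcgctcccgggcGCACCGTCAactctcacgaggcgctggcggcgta
Txnrd1: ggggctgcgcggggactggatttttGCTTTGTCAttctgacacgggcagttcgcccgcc
Prdx1: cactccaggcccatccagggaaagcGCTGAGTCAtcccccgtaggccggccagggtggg
Sod1: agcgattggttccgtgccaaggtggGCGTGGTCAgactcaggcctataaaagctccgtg
Mt2: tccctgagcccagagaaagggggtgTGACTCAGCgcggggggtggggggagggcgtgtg

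These stretches lie at chr2:75704870-75704913 (minus strand) for Nfe2l2, chr3:122245398-122245456 (plus) for Gclm, chr10:82859089-82859147 (plus) for Txnrd1, chr4:116685441-116685499 (plus) for Prdx1, chr16:90220681-90220739 (plus) for Sod1 and chr8:94172514-94172572 (plus) for Mt2. Counted from the start, the first base of the core as printed is at position -240 in Nfe2l2, -134 in Gclm, -92 in Txnrd1, -133 in Prdx1, -56 in Sod1 and -79 in Mt2. The start used for Txnrd1 lies within the annotated gene (chr10:82833951-82897712), so its stretch does not precede the whole gene. The cores of Prdx1 and Mt2 also hold the letters TGACTCA of the AP-1 site. Exons of other transcripts cover the stretch of Nfe2l2 (E030042O20Rik) and that of Mt2 (Gm45774). A match of these letters is a description of the window and does not show that a factor binds there.

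Total counts ran from 39491828 to 55745849 per library, and the 42 genes together took 0.423% to 0.467% of them. Zbtb46 had a mean of 13.6 ± 0.622 CPM in WT, 11.2 ± 0.536 in KD and 191 ± 2.67 in OE (SD, n = 3), where CPM are scaled with TMM factors. The fall in the knockdown libraries was small, with a log2 fold change of -0.28 (SE 0.055) and an adjusted p of 0.00144 (edgeR quasi-likelihood test, Benjamini-Hochberg). Ribosomal RNA features took 7.44% to 17.3% of the counts in WT, 9.55% to 12.0% in KD and 14.4% to 18.2% in OE, and the part of this share in the results was not tested beyond the scaling alternatives. Of 13 endothelial markers, 6 passed the filter on low counts; Pecam1, Cdh5, Tie1, Emcn, Cldn5 and Vwf were at most 0.222 CPM in any library and Erg had 0 counts. The summed endothelial markers, mostly Eng, ran from 147 to 160 CPM in WT, 124 to 131 in KD and 107 to 118 in OE, although Flt1 was higher in OE (17.2 CPM in WT, 21.9 in OE). The 6 fibroblast markers, mostly Col1a1, summed to 5107 to 5674 CPM in WT, 4845 to 4909 in KD and 4036 to 4131 in OE. The 6 smooth muscle and pericyte markers, with Acta2 the highest in WT, summed to 10.5 to 13.7 CPM in WT, 6.53 to 6.85 in KD and 3.31 to 4.26 in OE. Of these 6 markers, 4 averaged under 1 CPM in every group. These sums moved with the groups, and their part in the results below was not tested. In bulk RNA, fewer cells that express a gene and less of its RNA per cell cannot be told apart.

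Many of the antioxidant genes differed between groups, mostly by modest amounts and in both directions, as did many other genes at a similar level of expression. Against WT, 11 of the 41 tested genes rose and 7 fell in KD, and 11 rose and 12 fell in OE, taking 0.05 as the limit for the adjusted p. Of all 16955 genes tested, 21.4% were called in KD (11% higher, 10.4% lower) and 36.4% in OE (16.9% higher, 19.5% lower). Between OE and KD, 9 of the 41 were higher in OE and 14 lower, against 41.5% of all genes called (19.4% higher, 22.1% lower). In 30 of the 41 the 3 groups differed, against 47.7% of all genes, and for this test no share at a similar level was computed. At a similar level of expression the shares lay closer. Averaging 20 CPM or more were 35 genes of the set, of which 10 rose and 5 fell in KD (42.9% called) and 10 rose and 10 fell in OE (57.1%). Of all 7171 genes at that level, 33.1% were called in KD (20.6% higher, 12.5% lower) and 53.1% in OE (25.9% higher, 27.1% lower). Between OE and KD, 8 of the 35 were higher in OE and 12 lower (57.1% called), against 57.9% of the 7171 (25.2% higher, 32.7% lower). The median log2 fold change of the 41 genes was 0.03 in KD and -0.04 in OE, and over all genes it was -0.0022 and 0.002. The libraries of KD and WT did not overlap for 19 of the 41 genes, those of OE and WT for 25 and those of OE and KD for 28, against 34.7%, 45.1% and 55.4% of all genes. Called, not overlapping and changed by at least 0.5 on the log2 scale were 4 genes in KD (Prdx6, Mgst3, Sod3 and Gstt1) and 5 in OE (Keap1, Slc7a11, Gpx8, Gsta4 and Gstt1), against 5.57% and 13.1% of all genes. The only called change of at least 2-fold against WT was the rise of Prdx6 in KD.

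**Figure D1:**
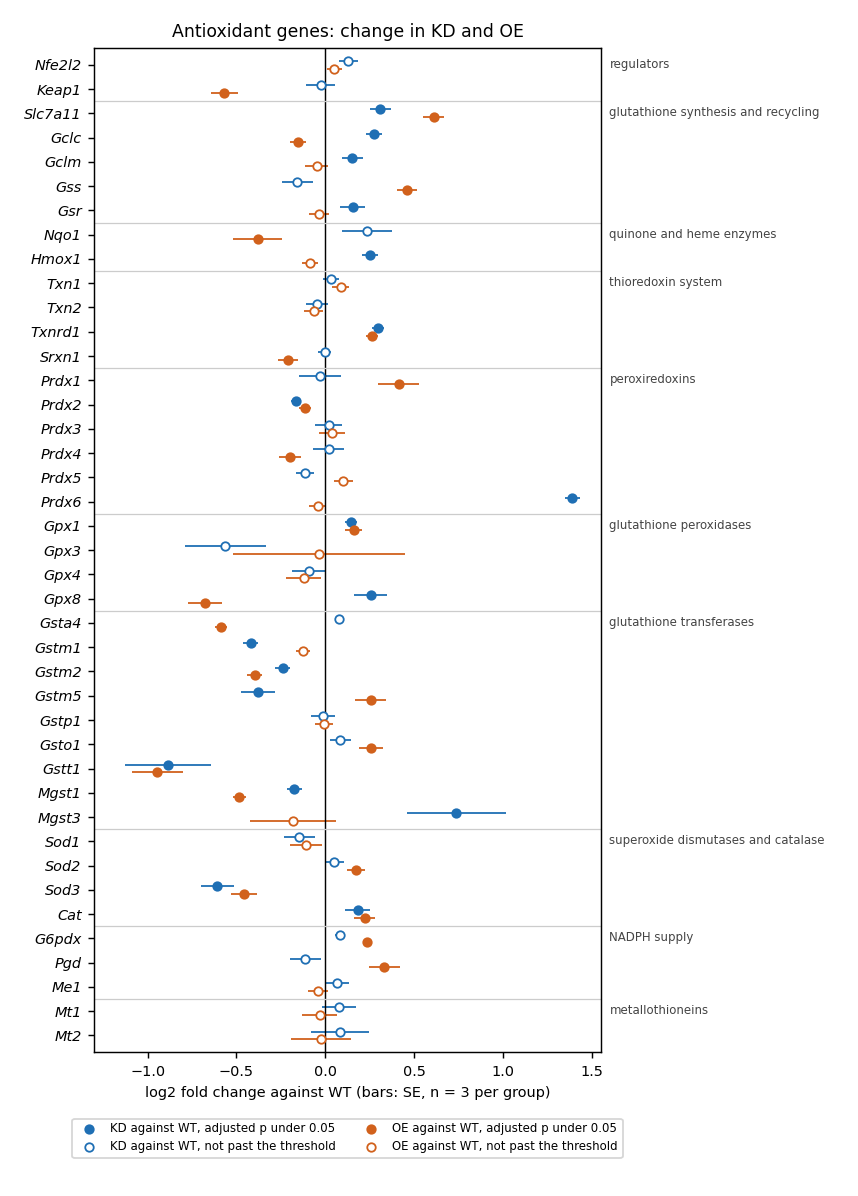
Log2 fold change against WT of the 41 tested antioxidant genes in KD (blue) and OE (orange), grouped by role; bars are the SE over 3 libraries per group and filled points passed an adjusted p of 0.05. Most points lie within 0.5 of the zero line, Prdx6 in KD stands at 1.39, and 9 filled points of the glutathione transferases lie left of the line and 3 right of it.

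The counts in KD depended on single libraries: 6 genes were higher without KD replicate 2, 5 without KD replicate 3, and 12 were lower without WT replicate 2. Leaving out WT replicate 2 let 7 further genes pass in KD (Gpx4, Gss, Me1, Nfe2l2, Pgd, Prdx5 and Sod1) and 5 in OE (Gpx4, Gstm1, Hmox1, Sod1 and Txn2). Without WT replicate 3, Mt1 and Prdx1 passed in KD and Gclm and Prdx5 in OE, and without WT replicate 1, Nqo1 passed in KD and Txn1 in OE. With library totals alone in place of TMM, 7 rose and 7 fell in KD and 5 rose and 13 fell in OE. Over all genes that scaling moved the higher share of the called genes from 51.4% to 35.8% in KD and from 46.5% to 31.6% in OE.

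The genes also span a wide range of levels. Divided by annotated exon length, the WT means ran from 0.29 ± 0.0749 CPM per kb for Gpx3 to 419 ± 20.9 for Txn1, the cytosolic thioredoxin (SD, n = 3). Mt1 followed at 274 ± 32.4, Prdx1 at 138 ± 18.2, Gpx1 at 116 ± 4.52 and Gpx4 at 106 ± 12.0. Prdx1, Gpx1 and Gpx4 overlapped in their spread, as did Sod1 (74.5 ± 7.93), Mgst1 (68.4 ± 2.79) and Gstp1 (67.4 ± 3.33). At the low end stood Slc7a11 at 2.10 ± 0.139, Mgst3 at 1.5 ± 0.428 and Gstt1 at 1.48 ± 0.195. The length counts every exon of every annotated transcript, so genes with long alternative transcripts read low on this scale. The levels per kb of the whole set summed to 2000 ± 70.4 CPM in WT libraries, 2079 ± 31.8 in KD and 2015 ± 41.6 in OE.

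**Figure D2:**
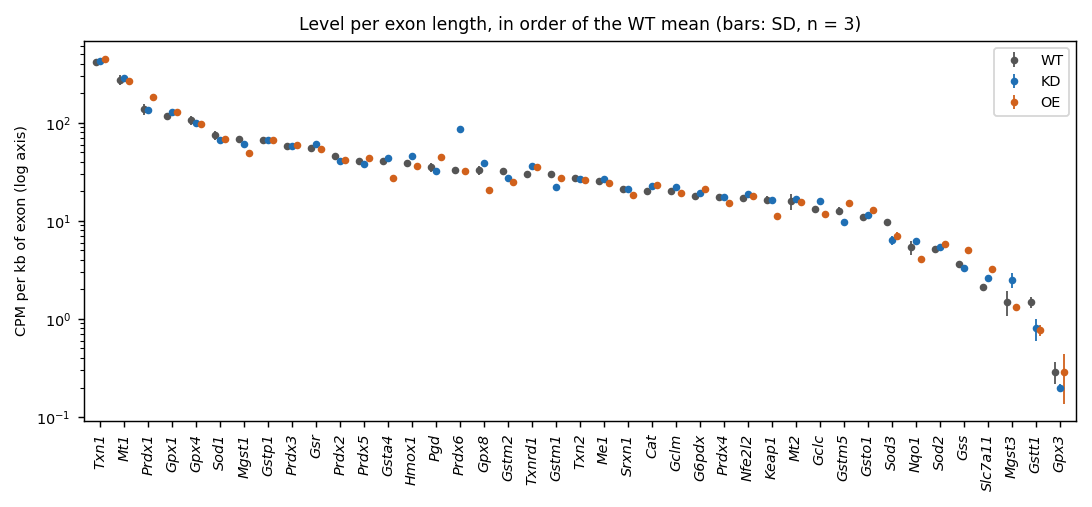
Mean level per kb of exon (log axis) of the antioxidant genes with a count, in order of the WT mean, for WT (grey), KD (blue) and OE (orange); bars are the SD over 3 libraries. The 3 groups nearly coincide for most genes, and Prdx6 in KD stands apart at 86.3 CPM per kb against 32.9 in WT.

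The regulators came first in the comparison. Nfe2l2 (chr2:75675513-75704641) had 63.8, 69.4 and 63.4 CPM in the WT libraries, 69.1, 71.4 and 74.7 in KD and 67.4, 68.4 and 67.9 in OE. The groups overlapped, and neither change passed the test: the log2 fold change was 0.13 (SE 0.054) in KD with an adjusted p of 0.0727, and 0.05 (SE 0.043) in OE with an adjusted p of 0.479 (edgeR, Benjamini-Hochberg). Without WT replicate 2 the change in KD passed. Keap1 (chr9:21229730-21239361), the adaptor that marks NRF2 for degradation, had 76.3, 71.1 and 85.0 CPM in WT, 74.4, 79.1 and 74.5 in KD and 52.4, 53.3 and 51.0 in OE. All 3 OE libraries lay below every other library. Keap1 fell by 0.57 on the log2 scale in OE (SE 0.077, adjusted p = 1.07e-07, edgeR with Benjamini-Hochberg), while its change in KD was -0.03 (SE 0.080, adjusted p = 0.809).

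Genes around Keap1 were, on balance, lower in OE as well. The median log2 change of the 143 genes in its 20 Mb window was -0.38 in OE and 0.13 in KD. After the window medians were removed, the change of Keap1 in OE was -0.18 (adjusted p = 0.0147, edgeR with Benjamini-Hochberg), and between OE and KD it went from -0.54 to -0.03 (adjusted p = 0.772). The window of 6 antioxidant genes shifted by more than 0.2 in OE: Keap1, Gclc and Gsta4 on chromosome 9, Gpx8 on chromosome 13, and Prdx1 and Pgd on chromosome 4. In KD it shifted by more than 0.2 for 0 of them. What shifted these windows was not tested, and the values with the window removed are given beside each of the 6.

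**Figure D3:**
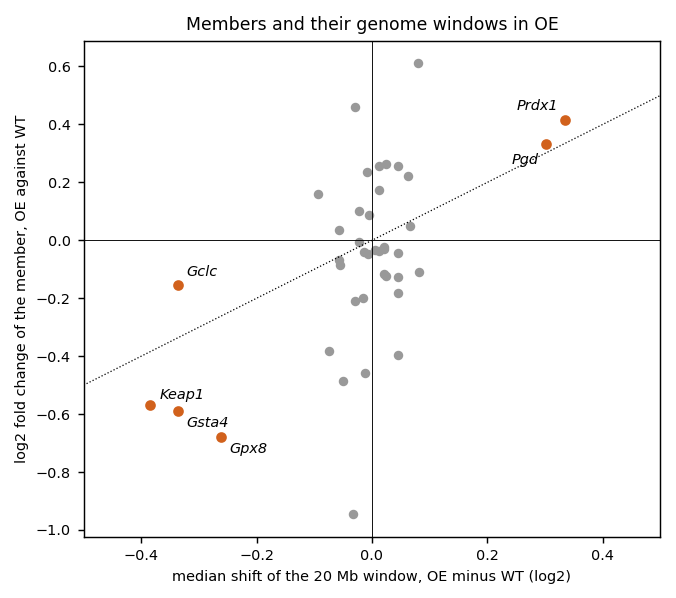
Log2 fold change of each tested antioxidant gene in OE against WT (vertical) by the median change of the genes in its 20 Mb window (horizontal, log2); the dotted line marks equal values and the 6 genes whose window shifted by more than 0.2 are orange. Keap1, Gsta4 and Gpx8 lie below the line in windows that shifted down, Gclc above it, and Prdx1 and Pgd close to it in windows that shifted up.

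Of the 5 genes for cystine uptake and for making and recycling glutathione, 4 rose in KD, 0 fell and Gss did not pass. In KD 11% of all genes were higher and 10.4% lower, and 20.6% and 12.5% of those averaging 20 CPM or more. The calls of Gclm and Gsr were lost under several alternatives given below, and the split within these 5 genes was not tested. In OE Slc7a11 and Gss rose and Gclc fell, against 16.9% of all genes higher and 19.5% lower. Slc7a11 (chr3:49892526-50443614) encodes the cystine carrier of the system xc- exchanger, which brings in the cysteine that limits glutathione synthesis. It had 29.2, 31.1 and 27.2 CPM in WT, 35.7, 37.1 and 35.8 in KD and 43.7, 44.4 and 45.7 in OE. The 3 groups did not overlap, with WT lowest and OE highest. The log2 fold change was 0.31 (SE 0.058, adjusted p = 0.00063) in KD and 0.61 (SE 0.058, adjusted p = 4.95e-08) in OE (edgeR, Benjamini-Hochberg). Among the 7171 genes of at least 20 CPM, 428 rose further in KD and 103 in OE.

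Glutamate-cysteine ligase makes the first and rate-limiting step of glutathione synthesis from a catalytic subunit, Gclc, and a modifier subunit, Gclm. Gclc had 49.7, 51.5 and 46.5 CPM in WT, 60.5, 59.1 and 59.1 in KD and 44.6, 44.7 and 43.5 in OE, and the groups did not overlap. It rose in KD with a log2 fold change of 0.27 (SE 0.045, adjusted p = 0.000523) and was lower in OE at -0.15 (SE 0.045, adjusted p = 0.0246), by edgeR with Benjamini-Hochberg. The OE call was lost with upper-quartile factors and when any 1 of the OE libraries, WT replicate 1 or WT replicate 2 was left out, and with the window medians removed the value reversed to 0.18 (adjusted p = 0.00659). Gclm, whose promoter stretch is printed above, rose in KD from 126 ± 8.44 to 140 ± 2.18 CPM (SD, n = 3; log2 fold change 0.15, adjusted p = 0.0293) and stood at 122 ± 4.31 in OE (adjusted p = 0.488). That rise of Gclm did not pass with upper-quartile factors, with library totals alone, in a fit of the KD and WT libraries only, or without WT replicate 3 or any 1 of the KD libraries. The level of Gclm per kb was 1.53 times that of Gclc in WT, 1.40 times in KD and 1.64 times in OE, with libraries at 1.49 to 1.56, 1.36 to 1.44 and 1.58 to 1.74.

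Gss, glutathione synthetase, which adds glycine in the second step, rose in OE and did not pass in KD. It had 22.2, 20.1 and 22.9 CPM in WT, 20.4, 20.4 and 17.7 in KD and 29.7, 29.7 and 30.2 in OE. Its rise in OE was 0.46 on the log2 scale (SE 0.056, adjusted p = 2.88e-05, edgeR with Benjamini-Hochberg), and in KD the value was -0.16 (adjusted p = 0.142). Exons of Gss overlap those of Acss2 and of the Gssos transcripts on the other strand, and whether counting used strand is not given in the sources used here. Gsr, glutathione reductase, was called higher in KD (169 ± 8.42 against 152 ± 10.6 CPM, log2 fold change 0.15, adjusted p = 0.0297) although 1 WT library, at 163 CPM, lay above 1 KD library, at 160. That call was lost under 5 alternatives, among them library totals, upper-quartile factors and removal of the window medians, and when KD replicate 2, KD replicate 3 or WT replicate 3 was left out.

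Nqo1 and Hmox1, both targets of NRF2, were lower in OE than in KD. The whole set went both ways in that comparison, with 9 of 41 genes higher in OE and 14 lower, against 19.4% and 22.1% of all genes. Slc7a11, G6pdx, Pgd and Prdx1 were among the higher, and Gclc, Gclm and Srxn1 among the lower. With the window medians removed, Pgd (-0.0249), Prdx1 (-0.0384) and Gclc (0.0285) no longer passed, while Slc7a11, G6pdx, Gclm and Srxn1 did. The G6pdx call was lost with library totals, with a filter of at least 1 count in total, and without KD replicate 1 or KD replicate 2. NRF2 activity was not tested. Nqo1, the quinone reductase, had 9.7, 8.28 and 7 CPM in WT, 9.41, 9.56 and 10.4 in KD and 6.65, 6.34 and 6.15 in OE. It fell in OE by 0.38 on the log2 scale (SE 0.139, adjusted p = 0.0141, edgeR with Benjamini-Hochberg), a call lost without WT replicate 1 or OE replicate 3 and with the window medians removed. The change of Nqo1 in KD was 0.24 (adjusted p = 0.161). Hmox1, heme oxygenase 1, had 71.5, 64.8 and 65.9 CPM in WT, 80.4, 80.4 and 80.0 in KD and 64.4, 63.2 and 62.7 in OE. All 3 KD libraries lay above the others, with a log2 fold change of 0.25 (SE 0.044, adjusted p = 0.000558), and the value in OE was -0.09 (adjusted p = 0.176). The log2 difference of OE from KD was -0.62 for Nqo1 (adjusted p = 0.000186) and -0.34 for Hmox1 (adjusted p = 5.92e-06).

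In the thioredoxin system, 1 of 4 genes rose in KD, and 1 rose and 1 fell in OE. The shares of all genes were 11% higher and 10.4% lower in KD, and 16.9% and 19.5% in OE. Txnrd1, cytosolic thioredoxin reductase, had 201, 214 and 217 CPM in WT, 257, 259 and 260 in KD and 252, 254 and 254 in OE. It rose in both lines, by 0.30 (SE 0.034, adjusted p = 1.52e-05) in KD and 0.26 (SE 0.034, adjusted p = 1.82e-05) in OE (edgeR, Benjamini-Hochberg), against the same WT libraries. The difference between OE and KD was -0.03 (adjusted p = 0.583). Srxn1, sulfiredoxin, which restores over-oxidised peroxiredoxins, was lower in OE at 51.6 ± 3.02 CPM against 59.7 ± 1.79 in WT (log2 fold change -0.21, adjusted p = 0.00373) and 59.5 ± 1.75 in KD. Txn1, at 440 ± 22, 450 ± 10.3 and 467 ± 13.7 CPM in WT, KD and OE, and mitochondrial Txn2, at 116 ± 7.27, 112 ± 4.33 and 110 ± 2.14, did not pass in any comparison.

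The peroxiredoxins reduce hydrogen peroxide and organic peroxides, and 1 of them gave the largest called change of the set. Prdx6 (chr1:161240112-161251219, minus strand), the 1-cysteine peroxiredoxin that also acts on phospholipids, had 166, 159 and 150 CPM in WT, 419, 417 and 408 in KD and 149, 154 and 158 in OE. The KD libraries stood far above all others, while WT and OE overlapped. The KD mean was 2.62 times that of WT, a log2 fold change of 1.39 (SE 0.042, adjusted p = 2.83e-15, edgeR with Benjamini-Hochberg). Over all alternatives tried, the value ran from 1.35 to 1.42. In OE it was -0.04 (SE 0.047, adjusted p = 0.48). Of the 7171 genes averaging 20 CPM or more, 7 rose further in KD.

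No tested gene within 500 kb of Prdx6 that averaged 1 CPM or more rose by as much. These 10 neighbours had a median log2 change of 0.03 in KD, from -1.04 to 0.35, and the median of the 20 Mb window of Prdx6 was 0.04. The near-identical copy Prdx6b had 5 to 44 counts in a library and the pseudogene Prdx6-ps2 0 to 10, far fewer than Prdx6. Scaled by exon length, Prdx6 made up 9.93% ± 0.276 (SD, n = 3) of the summed peroxiredoxin level in WT, 23.0% ± 0.636 in KD and 8.51% ± 0.135 in OE.

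**Figure D4:**
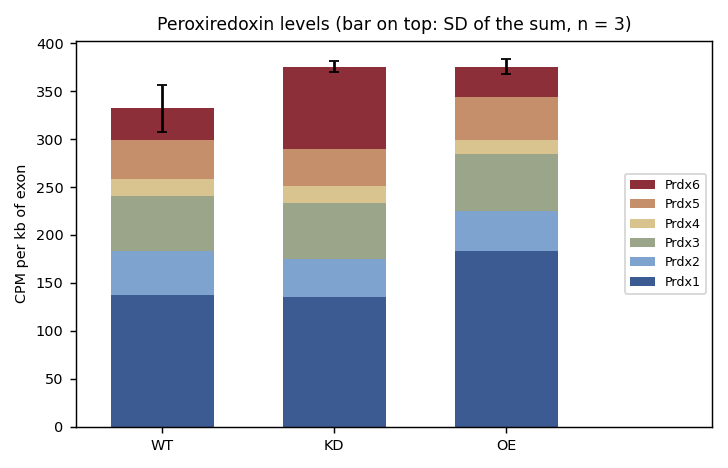
Summed level of the 6 peroxiredoxins per kb of exon in WT, KD and OE, stacked by gene (means of 3 libraries; the bar on top is the SD of the sum). Prdx6 grows from 32.9 CPM per kb in WT to 86.3 in KD, and Prdx1 from 138 in WT to 183 in OE.

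The other peroxiredoxins changed by less. Prdx1, the abundant cytosolic form, had 458, 442 and 355 CPM in WT, 402, 407 and 422 in KD and 548, 553 and 572 in OE. It rose in OE by 0.41 (SE 0.116, adjusted p = 0.000908, edgeR with Benjamini-Hochberg), but its window on chromosome 4 shifted by 0.34, and with the window removed the value was 0.08 (adjusted p = 0.43). Prdx2 fell slightly in both lines, from 139 ± 3.88 to 124 ± 2.82 CPM in KD (log2 fold change -0.16, adjusted p = 0.00743) and 128 ± 3.73 in OE (-0.11, adjusted p = 0.0383). The fall of Prdx2 in KD was lost without KD replicate 2, and that in OE under 4 alternatives and when WT replicate 1, OE replicate 1, OE replicate 2 or KD replicate 3 was left out. Prdx2 shares exon bases with Rnaseh2a and Junb. Prdx4, the form of the endoplasmic reticulum, fell in OE from 36.5 ± 2.5 to 31.8 ± 1.01 CPM (log2 fold change -0.20, adjusted p = 0.026), a call lost with upper-quartile factors and without WT replicate 1, OE replicate 1 or OE replicate 2. Mitochondrial Prdx3 (85.1, 86.3 and 87.2 CPM on average in WT, KD and OE) and Prdx5 (88.1, 81.5 and 94.4) did not pass against WT, and Prdx5 was higher in OE than in KD (log2 fold change 0.21, adjusted p = 0.00151).

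Of the 4 tested glutathione peroxidases, 2 rose in KD, and 1 rose and 1 fell in OE. Among all genes 11% were higher and 10.4% lower in KD, and 16.9% and 19.5% in OE. Gpx8 (chr13:113042753-113046410), a peroxidase of the endoplasmic reticulum, had 37.7, 34.9 and 30.5 CPM in WT, 39.5, 41.4 and 42.2 in KD and 21.5, 20.4 and 22.5 in OE. The groups did not overlap, with OE lowest and KD highest. It fell by 0.68 in OE (SE 0.097, adjusted p = 1.92e-07) and rose by 0.26 in KD (SE 0.093, adjusted p = 0.011), by edgeR with Benjamini-Hochberg. With the window medians removed, the OE value was -0.41 (adjusted p = 4.28e-05) and the KD value 0.10 (adjusted p = 0.348). The KD call was also lost without KD replicate 3.

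Gpx1, the main cytosolic form, rose in both lines, from 168 ± 6.52 CPM in WT to 185 ± 1.26 in KD (log2 fold change 0.15, adjusted p = 0.0202) and 187 ± 8.38 in OE (0.16, adjusted p = 0.00628; edgeR, Benjamini-Hochberg). The KD call was lost with upper-quartile factors, with library totals and without any 1 of the KD libraries, and the OE call with library totals and without OE replicate 3. Gpx4, which reduces lipid peroxides in membranes and guards against ferroptosis, stood at 184 ± 20.6, 172 ± 4.76 and 169 ± 5.14 CPM and did not pass. The pseudogene Gpx4-ps2 had 546 to 846 counts in a library, so reads could have been split between the copies. Gpx3, the secreted form, was at 0.526 ± 0.136 CPM in WT, 0.359 ± 0.0353 in KD and 0.520 ± 0.272 in OE, and did not pass in any comparison.

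The glutathione transferases, which join glutathione to electrophiles, had 1 of 9 genes higher and 5 lower in KD, and 2 higher and 4 lower in OE. Over all genes 11% were higher and 10.4% lower in KD, and 16.9% and 19.5% in OE, and the split within the family was not tested. Their summed level per kb was 266 ± 9.48 CPM in WT, 245 ± 6.68 in KD and 225 ± 3.64 in OE (SD, n = 3), and the 3 groups did not overlap. Mgst1, the microsomal enzyme and together with Gstp1 the highest of the family, had 143, 132 and 138 CPM in WT, 120, 120 and 126 in KD and 96.9, 99.8 and 98.3 in OE. It fell by 0.17 in KD (SE 0.041, adjusted p = 0.00613) and 0.48 in OE (SE 0.036, adjusted p = 1.77e-08; edgeR, Benjamini-Hochberg), and was lower in OE than in KD (adjusted p = 5.55e-06). Gstp1 did not pass in any comparison, at 104 ± 5.15, 103 ± 6.55 and 104 ± 3.6 CPM.

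The 3 mu-class genes lie within one cluster on chromosome 3, and they did not move alike. Gstm2 fell in both lines, from 54.8 ± 2.72 CPM to 46.3 ± 0.114 in KD (log2 fold change -0.24, adjusted p = 0.00187) and 41.6 ± 0.454 in OE (-0.40, adjusted p = 3.29e-06; edgeR, Benjamini-Hochberg). Gstm1 fell in KD from 43.8 ± 1.70 to 32.7 ± 1.15 CPM (-0.42, adjusted p = 1.5e-05), and its value in OE, 40.1 ± 1.19, did not pass (-0.13, adjusted p = 0.0864). Gstm5 had 17.2, 14.5 and 16.8 CPM in WT, 12.7, 11.4 and 13.0 in KD and 20, 18.2 and 19.5 in OE. It fell in KD (-0.38, SE 0.097, adjusted p = 0.00299) and was called higher in OE (0.26, SE 0.088, adjusted p = 0.0206). The rise of Gstm5 in OE was lost with library totals, with the window medians removed, and without WT replicate 2, OE replicate 1 or OE replicate 3. Direct comparison of OE with KD gave 0.63 for Gstm5 (adjusted p = 3.22e-06), 0.29 for Gstm1 (adjusted p = 0.000223) and -0.16 for Gstm2 (adjusted p = 0.0198). The Gstm2 difference did not pass with upper-quartile factors or when OE replicate 1, KD replicate 2, OE replicate 2 or KD replicate 3 was left out. Mu-class genes resemble each other in sequence, so reads could have been split between them.

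Gsta4 (chr9:78182774-78209349), an alpha-class enzyme that acts on the lipid peroxidation product 4-hydroxynonenal, had 53.1, 52.2 and 50.9 CPM in WT, 54.6, 54.9 and 55.5 in KD and 35.5, 33.3 and 35.1 in OE. It fell in OE by 0.59 (SE 0.034, adjusted p = 1.07e-08, edgeR with Benjamini-Hochberg). Its window shifted by -0.34, and with the window removed the value was -0.25 (adjusted p = 0.000806). Gstt1 (chr10:75783813-75798584), of the theta class, was low throughout, with 1.98, 2.23 and 2.57 CPM in WT, 1.47, 1.33 and 0.880 in KD and 1.07, 1.13 and 1.33 in OE. Every KD and OE library lay below every WT library, with log2 fold changes of -0.88 (SE 0.243, adjusted p = 0.00829) and -0.94 (SE 0.143, adjusted p = 0.00275). The call in KD was lost without KD replicate 3. Mgst3 (chr1:167371966-167393841), another microsomal enzyme, had 1.19, 1.63 and 2.12 CPM in WT, 2.22, 3.09 and 2.99 in KD and 1.43, 1.39 and 1.56 in OE. Its rise of 0.74 in KD (SE 0.279, adjusted p = 0.0194) did not hold when KD replicate 2, KD replicate 3 or WT replicate 1 was left out. Gsto1, of the omega class, rose in OE from 22 ± 1.23 to 26.2 ± 1.43 CPM (0.26, adjusted p = 0.0055), a call lost with library totals.

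**Figure D5:**
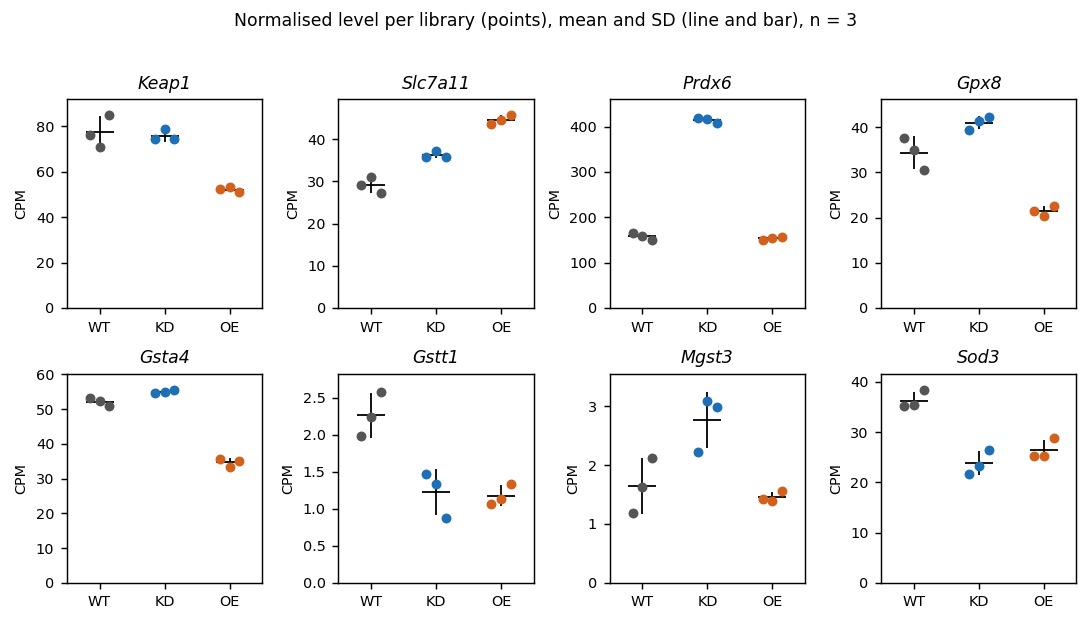
Level in CPM of 8 antioxidant genes in each library (points) of WT, KD and OE, with the mean (line) and SD (bar) over 3 libraries; each panel has its own axis from 0. Prdx6 is high in the 3 KD libraries alone, Keap1, Gpx8 and Gsta4 are low in OE alone, Sod3 and Gstt1 are lower in both lines than in WT, Slc7a11 climbs from WT to KD to OE, and Mgst3 is highest in KD.

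Among the 3 superoxide dismutases and catalase, the secreted dismutase changed most in both lines. Sod3 (chr5:52363791-52371418), extracellular superoxide dismutase, had 35.2, 35.3 and 38.3 CPM in WT, 21.7, 23.2 and 26.4 in KD and 25.2, 25.2 and 28.8 in OE. All KD and OE libraries lay below the WT libraries. Sod3 fell by 0.61 in KD (SE 0.092, adjusted p = 6.26e-06) and 0.46 in OE (SE 0.075, adjusted p = 5.54e-05; edgeR, Benjamini-Hochberg). Of the 7171 genes of at least 20 CPM, 45 fell further in KD and 588 in OE. The difference between OE and KD was 0.15 (adjusted p = 0.126).

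Catalase (Cat), the peroxisomal enzyme, rose in both lines, from 52.3 ± 3.41 CPM to 59.4 ± 3.07 in KD (log2 fold change 0.18, adjusted p = 0.0223) and 61.0 ± 1.29 in OE (0.22, adjusted p = 0.00342; edgeR, Benjamini-Hochberg). The KD call was lost with library totals, in a fit of the KD and WT libraries only, and when KD replicate 2, KD replicate 3 or WT replicate 1 was left out. The OE call was lost with library totals. Mitochondrial Sod2 rose in OE from 51.9 ± 2.98 to 58.6 ± 1.45 CPM (0.17, adjusted p = 0.0123), a call lost with library totals and without OE replicate 1. Cytosolic Sod1, the highest of the 4 genes per kb, had 296 ± 31.5, 267 ± 1.54 and 274 ± 8.87 CPM and did not pass (adjusted p = 0.0781 in KD and 0.152 in OE), although both changes passed without WT replicate 2.

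NADPH feeds glutathione reductase and thioredoxin reductase. None of the 3 NADPH genes passed in KD by edgeR, where 21.4% of all genes did and 33.1% of those averaging 20 CPM or more. An unadjusted p under 0.05 was found in KD for 0 of the 3 and for 5413 of all 16955 genes tested. In OE the pentose phosphate enzymes G6pdx and Pgd rose and malic enzyme Me1 did not pass. Of all genes 16.9% rose and 19.5% fell in OE, and 53.1% of those averaging 20 CPM or more were called. G6pdx, the entry enzyme, had 55.2, 56.2 and 56.2 CPM in WT, 58.6, 57.6 and 61.1 in KD and 65.7, 65.0 and 66.8 in OE, with a log2 fold change of 0.24 in OE (SE 0.014, adjusted p = 0.000391, edgeR with Benjamini-Hochberg). That call was lost with library totals. Pgd had 224, 205 and 252 CPM in WT, 209, 207 and 214 in KD and 281, 292 and 284 in OE. Its rise of 0.33 in OE (SE 0.087, adjusted p = 8.37e-05) was 0.03 (adjusted p = 0.697) with the window median of 0.30 removed. Me1 stood at 97.2 ± 6.59, 102 ± 3.72 and 94.5 ± 1.24 CPM.

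The metallothioneins, which bind zinc and copper and scavenge oxidants, did not pass in any comparison. Mt1 had 325, 311 and 387 CPM in WT, 355, 358 and 366 in KD and 324, 341 and 337 in OE. Mt2, whose promoter stretch is printed above, had 9.46, 7.54 and 10.9 in WT, 9.73, 10.5 and 9.15 in KD and 8.50, 8.84 and 10.0 in OE. The level per kb of Mt1 was 17.5 ± 1.73 times that of Mt2 in WT, 17.4 ± 1.43 in KD and 17.4 ± 1.28 in OE, so the ratio differed between groups by less than its spread. The letters TGCNCNC, a loose form of the metal response element core, were counted on both strands. They occurred 6 times in the 300-base window of Mt2 and 3 times in that of Mt1, and at least once in 51.0% of all windows. How often other windows hold several matches was not given, and a match does not show that a factor binds. Exons of Gm45774 overlap Mt2 on the other strand.

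Set beside the promoter search, 2 of the 12 genes with the antioxidant response element core rose and 2 fell in KD, and 5 rose and 2 fell in OE. Of all genes 11% rose and 10.4% fell in KD, and 16.9% and 19.5% in OE. All of the 12 but Gstm5 and Mt2 averaged 20 CPM or more. At that level 20.6% of genes rose and 12.5% fell in KD, and 25.9% and 27.1% in OE. With the window medians removed, Gstm5, Pgd and Prdx1 no longer passed in OE and Sod1 did, which left 2 higher and 3 lower. Of the 23 tested genes with a window and no core, 5 rose and 4 fell in KD, and 6 rose and 7 fell in OE. The median log2 fold changes were 0.03 with the core and 0.02 without it in KD, and 0.01 and -0.04 in OE. A window without the core says only that these letters are not in it.

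A further 64 genes of the pathway, listed by function, were read from the same fit, and 58 were tested. In KD 9 rose and 11 fell, in OE 17 rose and 17 fell, and between OE and KD 18 were higher in OE and 13 lower. The shares called were 34.5%, 58.6% and 53.4%, against 21.4%, 36.4% and 41.5% of all genes and 33.1%, 53.1% and 57.9% of those averaging 20 CPM or more. The 58 genes were not cut at that level and include low ones, and their own share at that level was not computed. The KD total of 20 was 11 without KD replicate 2, 11 without KD replicate 3, and 10 with library totals alone. The 3 with the smallest p in KD all fell. Ftl1, ferritin light chain, went from 262 ± 9.89 to 218 ± 2.95 CPM (SD, n = 3; log2 fold change -0.27, adjusted p = 4.77e-05, edgeR with Benjamini-Hochberg). Sesn1, sestrin 1, went from 23.6 ± 0.841 to 17.2 ± 0.852 (-0.46, adjusted p = 7.98e-05). Ggt7, of the gamma-glutamyltransferase family, went from 11.4 ± 0.273 to 7.34 ± 0.216 (-0.63, adjusted p = 0.000182).

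The 3 with the smallest p in OE all rose, although 17 of the 58 rose and 17 fell. The falls included Gsta3, an alpha-class transferase, with a log2 fold change of -1.96 in OE (adjusted p = 5.9e-09, edgeR with Benjamini-Hochberg). Chac1 encodes an enzyme that breaks down glutathione. It had 38.2, 33.7 and 39.5 CPM in WT, 42.8, 43.8 and 43.4 in KD and 71.6, 72.5 and 62.6 in OE, a log2 fold change of 0.90 in OE (SE 0.097, adjusted p = 7.46e-10, edgeR with Benjamini-Hochberg). Txnip, the inhibitor that binds thioredoxin, had 27.8, 25.9 and 27.9 CPM in WT, 25.4, 22.6 and 22.2 in KD and 52.3, 55.4 and 46.7 in OE. Its log2 fold change in OE was 0.92 (SE 0.081, adjusted p = 1.47e-09). Sesn2, a stress-induced sestrin, had 24.1, 24.5 and 24.9 CPM in WT, 20.3, 21.4 and 20.2 in KD and 46.1, 42.4 and 43.3 in OE, with 0.84 in OE (SE 0.039, adjusted p = 4.68e-10), and its window on chromosome 4 shifted by 0.33. For all 3 the OE libraries lay above every other library.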

How the data were processed

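The deposited table holds whole-number read counts per Ensembl gene for 9 poly-A RNA-seq libraries, not normalised by the authors, as judged from the values and column names. The build is GRCm38 (mm10) per the submitters' processing notes. The aligner, counting program, annotation and use of strand are not given in the sources used here, so overlapping genes (9 of the 42 share exon bases with another gene) and near-identical copies could share reads. Of 55774 rows, 455 repeat 168 genes with identical counts, each used once. Positions, exon lengths and exon overlaps come from GENCODE M21, promoters from RefSeq.

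Genes kept by filterByExpr (16955) were scaled with TMM and fitted together with edgeR 4.0.16 (quasi-likelihood, group only), with Benjamini-Hochberg adjustment over all of them (threshold 0.05). Standard errors were computed from the spread of log2 CPM within groups, with a prior count of 2. An exact permutation test of 3 against 3 libraries cannot go below 0.1. With library totals as the only scaling, the median squared difference of every replicate pair was 3.01 to 11.2 times that of sampling noise. The WT pairs stood at 8.17 to 11.2, and the KD and OE pairs at 3.01 to 5.52. No library was therefore a copy of another. The ratio includes differences in composition and does not measure the spread left after TMM. The fit was tested on simulated counts. Alternatives used limma 3.58.1, DESeq2 1.42.0, other scalings, filters and windows, and each library left out.

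The 42 genes and all lists were chosen with earlier results of these data known. Described in full are genes with an adjusted p under 0.05, no overlap between groups and an absolute log2 fold change of at least 0.5 against WT at 1 CPM or more, plus Nfe2l2, Keap1 and Zbtb46, and of the further pathway genes the 3 with the smallest p in KD and the 3 in OE.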

Additional observations from a re-analysis of the deposited data

How the results depend on the processing

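The direction and call of the rise of Prdx6 in KD held in every alternative, that of Slc7a11 in OE and Sod3 in KD in all but the minimum fold. Requiring a fold of at least 1.5 left 1 antioxidant gene higher and 0 lower in KD, 0 higher and 0 lower in OE, and 0 higher and 2 lower in OE than in KD. Of the further pathway genes that test left 0 in KD, 5 in OE and 7 between OE and KD. Library totals alone gave 7 higher in KD, 5 higher in OE, and 10 further pathway genes called in KD. Removing the 20 Mb window medians reversed Gclc in OE against WT (0.18) and against KD (0.0285), and Prdx1 (-0.0384) and Pgd (-0.0249) in OE against KD.

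With 1 library left out, the antioxidant genes higher in KD numbered 5 to 13 and those lower 6 to 12. In OE 9 to 12 were higher and 8 to 16 lower, and against KD 7 to 10 were higher and 12 to 16 lower. The further pathway genes called numbered 11 to 23 in KD, 26 to 33 in OE and 27 to 36 between OE and KD, and 28 to 35 antioxidant genes differed among the groups.

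Whether replicate numbers pair the samples could not be settled with 3 libraries per group. After group means were removed, the 9 same-numbered pairs had correlations of -0.22 to 0.13, with 2 over 0.1. Differently numbered pairs ran from -0.15 to 0.15. With the replicate number as a block, 11 rose and 8 fell in KD, 11 rose and 12 fell in OE, and 8 were higher and 14 lower in OE than in KD. Gpx3 had fewer than 100 counts in every library, and how far depth limits its test was not measured.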
